A study of Mus musculus with 8 samples.

Results

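Ion channel gene expression was examined in skeletal cells sorted directly from mouse fracture calluses. The genes comprised the pore-forming and accessory subunits of potassium, voltage-gated calcium and voltage-gated sodium channels, and the channels of the transient receptor potential (TRP) family. Members were all probe sets annotated to exactly 1 gene symbol of the Kcn series with a single letter and a number (such as Kcna5 or Kcnk1), of the Cacna1, Cacna2d, Cacnb and Cacng series, of the Scn series, or of the Trpa, Trpc, Trpm and Trpv series. These amounted to 253 probe sets of 123 genes, out of 45037 probe sets that are not controls and 18193 genes with a probe set of their own. Potassium channels contributed 69 genes, calcium channels 24, sodium channels 11 and TRP channels 19. A further 19 genes of these series were not analysed here.

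Skeletal stem cells (SSCs) had been sorted as CD51+ and CD200+ cells that lack CD45, Ter119, Tie2, 6C3, Thy1 and CD105. Bone, cartilage and stromal progenitors (BCSPs), which lie downstream of them, were CD51+ and CD105+ and lacked the other 5 of those markers. Both populations came from male C57/Bl6 mice aged 10 to 12 weeks, whose femurs had been fractured through both cortices around an intramedullary pin, and 10000 cells of each were collected without culture. There were 4 experiments, and each provided 1 array per population. The labels place the harvest on day 7 after injury, whereas the study's methods give a later day, and no uninjured bone or other cell population was analysed here. The values are activity scores, which place a probe set between about -100 (inactive) and 100 (active) within its own range over a large collection of public mouse arrays, with 0 as its threshold. A probe set is called active here where its score lay above 0. The score levels off at both ends, and it does not rank the amount of one mRNA against that of another, so differences are given in points.

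Ion channels let selected ions cross the membrane and so set the membrane potential and carry calcium signals into the cell. Potassium channels hold the resting potential and end electrical activity, voltage-gated sodium and calcium channels open on depolarization, and TRP channels are cation channels that respond to stretch, osmolarity, temperature, lipids or second messengers. Cells of cartilage and bone do not fire trains of action potentials as neurons do, but load and osmolarity act on them through calcium entry. Trpv4 is the best known example, since mutations of the human gene cause skeletal dysplasias.

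Most channel probe sets were inactive in both populations, and a small set from the tandem-pore, voltage-gated, TRP and accessory classes was active on every array. Of the 253 probe sets, 13 scored above 0 on all 8 arrays (5.14%), against 16.1% of all probe sets. A total of 181 (71.5%) were above 0 on no array, against 49.5% of all probe sets, and 59 (23.3%) were above 0 on 1 to 7 arrays, against 34.4%. Counted by gene, 12 of 123 (9.76%) had a probe set above 0 on all 8 arrays, against 25.3% of all genes. A further 39 had one on some arrays only and 72 had none. The median score of the 253 probe sets was -31.1, -36.2, -51.9 and -44.6 on the SSC arrays of experiments 1 to 4 and -30.3, -50.2, -45.4 and -43.5 on the BCSP arrays. These medians lay below those of all probe sets, which ran from -34.2 to -24.8. An inactive score is low only in relation to other public arrays, and mRNA may still have been present.

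The 12 active genes were Kcna5, Kcna6, Kcnd1, Kcnq5, Kcne4, Kcnk1, Kcnk5, Kcnk6, Cacna2d1, Trpc1, Trpm7 and Trpv4, and Trpm7 was represented by 2 such probe sets. By family, 8 of 69 potassium channel genes, 1 of 24 calcium channel genes, 0 of 11 sodium channel genes and 3 of 19 TRP genes were active on all 8 arrays. Among tandem-pore channels the count was 3 of 12 genes (25.0%), near the share of 25.3% over all genes. Among voltage-gated potassium channels it was 4 of 31 (12.9%). It was 0 of 15 for the inward rectifiers and 0 of 9 for the pore-forming calcium channel subunits. Just outside the threshold were Trpm4 and, by 1438877_at, Trpm6, each above 0 on 7 arrays.

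**Figure D1:**
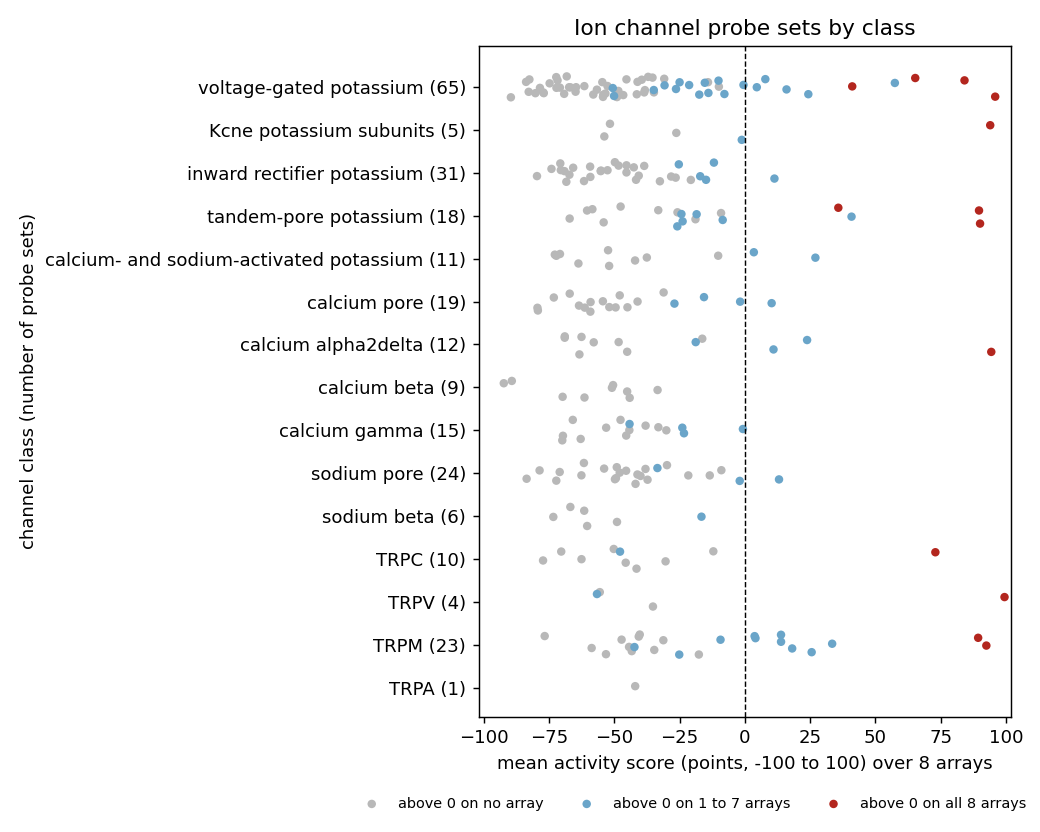
Mean activity score over the 8 arrays (points, horizontal axis) of the 253 channel probe sets, 1 point each, by channel class (vertical axis, number of probe sets in brackets). Red points are the 13 probe sets above 0 on all 8 arrays, blue those above 0 on 1 to 7 arrays, grey those above 0 on no array, and the dashed line is the threshold of 0; all 9 probe sets of the calcium beta class are grey.

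CpG content is one feature by which promoters are classed, and the rule that chose the genes did not use it. RefSeq promoters on GRCm38.p6, spanning 250 bases before to 50 bases after a start, were matched for 10 of the 12 active genes with 11 starts, for 33 of the 39 genes active on some arrays and for 52 of the 72 active on none. The start with most CpG dinucleotides was taken for each gene. The median was 21.0 CpGs in 300 bases for the active genes, 10.0 and 11.5 for the other groups, and 8.0 over 27025 genes. The ranges overlapped, at 4 to 42, 1 to 57, 1 to 63 and 0 to 67 in the same order. The CpG content of all genes active on every array was not computed, so the higher median is not read as particular to channels. The 250 bases before the start are shown for 4 genes that scored at least 84.1 on every array by their highest probe set. They include low and high CpG content, and each is written 5′ to 3′ on its own strand with CpGs in capitals.
Trpv4, chr5:114658422-114658671, minus strand: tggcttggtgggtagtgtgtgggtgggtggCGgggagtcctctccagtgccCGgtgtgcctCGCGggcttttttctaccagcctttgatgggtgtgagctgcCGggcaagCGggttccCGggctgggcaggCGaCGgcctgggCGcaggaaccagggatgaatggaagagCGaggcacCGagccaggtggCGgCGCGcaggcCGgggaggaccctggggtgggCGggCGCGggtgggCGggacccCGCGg
Trpm7, chr2:126876262-126876511, minus strand: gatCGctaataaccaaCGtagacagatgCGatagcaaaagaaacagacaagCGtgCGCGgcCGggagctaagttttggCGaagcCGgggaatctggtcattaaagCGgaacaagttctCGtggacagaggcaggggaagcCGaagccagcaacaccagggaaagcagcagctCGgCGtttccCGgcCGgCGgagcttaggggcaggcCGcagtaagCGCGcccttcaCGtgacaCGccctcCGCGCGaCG
Kcna5, chr6:126535556-126535805, minus strand: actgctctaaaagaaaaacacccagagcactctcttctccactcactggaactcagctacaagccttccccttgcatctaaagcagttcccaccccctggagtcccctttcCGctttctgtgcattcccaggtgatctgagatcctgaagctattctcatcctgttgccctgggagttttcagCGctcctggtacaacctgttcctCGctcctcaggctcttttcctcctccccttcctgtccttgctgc
Kcne4, chr1:78816661-78816910, plus strand: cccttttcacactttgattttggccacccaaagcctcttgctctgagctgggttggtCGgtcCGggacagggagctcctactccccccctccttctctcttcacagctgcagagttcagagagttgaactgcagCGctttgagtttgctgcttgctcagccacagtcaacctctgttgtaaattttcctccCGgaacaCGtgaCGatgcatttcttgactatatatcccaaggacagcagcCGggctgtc
The stretches upstream of Trpv4 and Trpm7 held 22 and 26 CpGs, those of Kcne4 and Kcna5 only 7 and 3. Over the whole 300 bases, Cacna2d1 had the most of the active genes, with 42, and Kcna5 had 4. The start of Kcnq5 with more CpGs had 20 and its other start 3. The letters TATAAA, searched on both strands, were found at 0 of the 11 starts of active genes and at 13.6% of all 32851 starts. An AP-1 motif, TGANTCA, was likewise found at 0 of 11 and at 7.81% of all starts. A GC box, GGGCGG, was present at 4 of 11 starts (Cacna2d1, Trpv4, Trpc1 and Kcnk5) and at 35.7% of all, and ACAAT, the core bound by SOX factors, at 2 of 11 (Kcnk1 and Kcnq5) and at 31.0% of all. The half-site of the cyclic AMP response element, TGACGT, was found at the starts of Kcna6 and Trpc1 and at 7.51% of all starts. Channel genes active on some arrays had TATAAA at 6.98% of starts, AP-1 at 2.33%, the GC box at 39.5%, ACAAT at 14.0% and TGACGT at 6.98%. For channel genes active on none, the shares were 9.86%, 2.82%, 42.3%, 21.1% and 2.82% in the same order. Low shares of TATAAA, AP-1 and ACAAT were thus not particular to the active genes. These are matches of letters in short windows, and some GC boxes contain the CpGs counted above.

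Of the 19 TRP genes, 3 were active on all arrays. Trpv4, a calcium-permeable channel opened by swelling and mechanical load, scored 100, 99.9, 98.2 and 100 on the SSC arrays of experiments 1 to 4. It scored 100, 100, 98.2 and 99.5 on the BCSP arrays. All 8 values lay within 2 points of the upper limit, where the score can no longer separate samples. The other TRPV genes were not active on all arrays: Trpv1 and Trpv2 were below 0 throughout, and Trpv6, an epithelial calcium channel, was above 0 on 1 array.

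Trpm7 joins a channel for magnesium, calcium and zinc to a protein kinase. Its probe set 1416801_at scored 96.5, 84.1, 89.5 and 96.1 in SSCs and 96.6, 94.9, 93.6 and 88.9 in BCSPs. Probe set 1416799_at scored 76.3, 87.3, 99.8 and 92.4 in SSCs and 67.4, 93.4, 99.7 and 98.8 in BCSPs. By the latter, the arrays of experiment 1 were the lowest in both populations, and the former did not show this. Trpm6 is the closest relative of Trpm7 and also a channel with a kinase domain. Its probe set 1438877_at scored 23.5, 4.40, 32.6 and -4.03 in SSCs and 13.1, 13.7, 17.6 and 10.1 in BCSPs. The other Trpm6 probe set, 1427642_at, averaged -50.5 in SSCs and -36.1 in BCSPs. Trpm4, a monovalent cation channel opened by calcium, scored 50.5, 35.0, -27.4 and 60.1 in SSCs and 49.6, 17.5, 14.7 and 4.77 in BCSPs. Trpm4 and Trpm6 1438877_at were thus each below 0 on a single SSC array. Of the 8 TRPM genes, 6 were above 0 on some arrays only. Trpm8, the cold receptor of sensory neurons, was the exception that was active on none.

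Trpc1, a subunit of receptor-operated calcium entry channels, was active by 1 of its 2 probe sets. On the SSC arrays 1421096_at scored 50.6, 76.5, 87.0 and 78.1. On the BCSP arrays it scored 35.0, 86.6, 85.7 and 84.4. Experiment 1 gave the lowest value of each population, and the other 6 values lay between 76.5 and 87.0. Of the other 5 TRPC genes, Trpc2 was above 0 on 1 array, and Trpc4, Trpc5, Trpc6 and Trpc7 on none. Trpa1, the irritant receptor of sensory neurons, ranged from -56.6 to -15.6.

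Voltage-gated pores, tandem-pore channels and a Kcne subunit supplied the 8 active potassium channel genes. Kcna5 encodes a delayed rectifier pore, best known from the heart atrium. It scored 97.0, 96.7, 93.2 and 97.1 in SSCs and 96.4, 95.8, 95.1 and 96.0 in BCSPs, so that all 8 values fell within 4 points. Kcna6, another pore of the same subfamily, scored 42.5, 96.7, 42.0 and 81.2 in SSCs and 72.3, 98.1, 56.4 and 33.1 in BCSPs. It varied far more than Kcna5, and both arrays of experiment 2 were its highest. Kcnd1, a pore of rapidly inactivating A-type currents, scored 75.0, 96.8, 80.7 and 90.0 in SSCs and 97.9, 62.5, 92.9 and 77.5 in BCSPs. The arrays of its 2 populations covered one another with no common order by experiment.

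Kcnq5, a pore of slow M-type currents, scored 44.0, 45.4, 45.7 and 41.3 in SSCs. Its BCSP arrays scored 28.3, 27.1, 55.9 and 41.4, a wider spread, with means of 44.1 points in SSCs and 38.2 in BCSPs. Most other genes of the class were not active throughout: 16 of the 31 voltage-gated genes were above 0 on no array, among them Kcna1, Kcna3, Kcnc2, Kcnd2, Kcnq1 and Kcnq3. A further 11 were above 0 on some arrays only. Among them Kcns1, a modifier subunit that forms no channel of its own, scored 95.7, 92.2, -17.6 and 97.6 in SSCs and 98.7, 78.6, 37.3 and -22.9 in BCSPs. Kcns1 was thus above 75 on 5 arrays and below 0 on 2. Kcng1, a modifier subunit as well, was highest in experiment 1 by 1459656_at, at 80.5 in SSCs and 71.0 in BCSPs. By that probe set it lay between -16.1 and 30.8 on the other 6 arrays. Its other probe set, 1457052_at, averaged -51.65 in SSCs and -56.86 in BCSPs. Kcnh2, the pore of the cardiac rapid delayed rectifier, was positive on both arrays of experiments 1 and 2 (5.18 to 32.7) and negative on those of experiments 3 and 4 (-20.3 to -0.740).

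Kcne4 encodes a membrane protein that joins voltage-gated pores and dampens their current. It scored 94.1, 93.4, 97.2 and 88.5 in SSCs and 95.5, 94.8, 97.7 and 90.9 in BCSPs. Within each population experiment 3 was highest and experiment 4 lowest, and BCSPs lay above SSCs in 4 of 4 experiments, with differences (SSC minus BCSP) from -2.47 to -0.470 points. Kcne1 and Kcne3 were below 0 on every array, and Kcne2 was above 0 on 2.

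Tandem-pore channels pass the background potassium current that holds cells near their resting potential. Kcnk5, a channel of this class that responds to pH and cell volume, scored 96.4, 84.0, 80.6 and 96.8 in SSCs and 94.5, 86.1, 86.0 and 96.6 in BCSPs. Experiments 1 and 4 gave the higher values in both populations. Kcnk6 scored 85.6, 90.0, 89.7 and 89.7 in SSCs and 85.5, 93.1, 94.1 and 89.9 in BCSPs, with experiment 1 lowest in both. Kcnk1 scored 42.3, 35.5, 31.3 and 34.5 in SSCs and 39.5, 31.9, 34.5 and 36.9 in BCSPs. These 8 values kept within 12 points of each other and clear of the threshold. Of the other 9 genes, Kcnk4, Kcnk7, Kcnk13, Kcnk15 and Kcnk16 were active on some arrays. Kcnk2, a stretch-sensitive channel of neurons and smooth muscle, lay just under the threshold on several arrays (-30.1 to -0.860), and Kcnk3, which responds to acid, was below 0 on every array by each of its 3 probe sets.

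**Figure D2:**
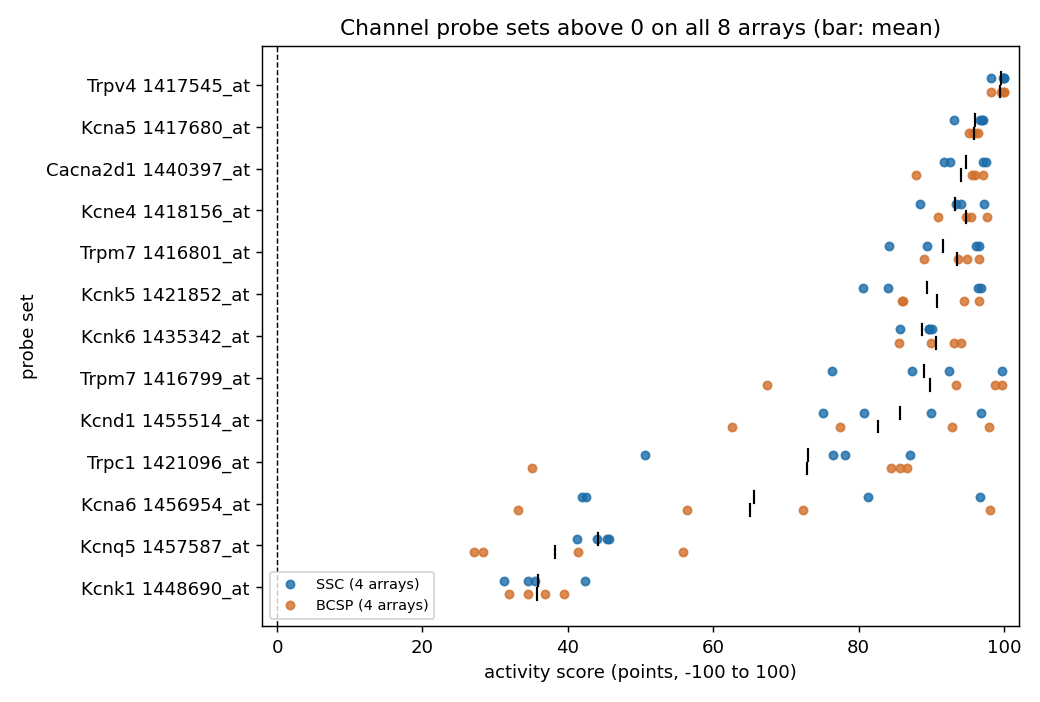
Activity score (points, horizontal axis) on the 4 SSC arrays (blue) and 4 BCSP arrays (orange) of the 13 channel probe sets above 0 on all 8 arrays (vertical axis, gene and probe set); each point is an array and short bars are means. Trpv4 and Kcna5 stay within narrow ranges, while Kcna6 runs from 33.1 to 98.1 and Trpc1 from 35.0 to 87.0.

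Inward rectifiers, which clamp the membrane potential and include the ATP-sensitive channels, were active on all arrays for 0 of 15 genes, and 13 of them were above 0 on none. Kcnj9, a subunit opened by G proteins, had the highest mean of the class. By 1433029_at it scored 10.2, 22.4, -60.6 and -1.97 in SSCs and 76.6, -16.9, 27.0 and 33.9 in BCSPs, with its highest value on the BCSP array of experiment 1. The means of the other Kcnj9 probe sets in either population lay between -69.4 and -15.5. Kcnj2, the classical strong rectifier, scored between -98.6 and -18.2, and the ATP-sensitive pores Kcnj8 and Kcnj11 were below 0 on every array. Among the small-conductance, intermediate and sodium-activated potassium channels, 1 of 7 genes was active on some arrays and 6 on none. That gene, Kcnn1, scored 60.9, 50.2, 23.5 and 49.0 in SSCs and 20.7, 42.6, -12.1 and -18.5 in BCSPs by 1419617_at. Kcnn4, the intermediate channel of blood and epithelial cells, ranged from -15.1 to -2.64 by the higher of its probe sets.

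Voltage-gated calcium channels were represented by an accessory subunit. Cacna2d1 encodes an extracellular alpha2delta subunit, which brings calcium channel pores to the membrane and also binds thrombospondins and gabapentin. Its probe set 1440397_at scored 97.1, 92.6, 91.7 and 97.5 in SSCs and 87.8, 95.6, 95.9 and 97.1 in BCSPs. The pores it accompanies scored low: 6 of 9 pore genes were above 0 on no array, including Cacna1d, Cacna1g and Cacna1s. Cacna1c, the main L-type pore, was the highest of them by mean score. By 1421297_a_at it scored 3.59, -7.55, 4.27 and 17.0 in SSCs and -13.3, -3.10, 16.2 and 65.0 in BCSPs, and by its other probe set it was below 0 on every array. Cacna1a, a neuronal pore, was above 0 on 4 arrays and Cacna1h, a T-type pore, on 1.

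None of the 9 probe sets of the intracellular beta subunits, Cacnb1, Cacnb2 and Cacnb4, was above 0 on any array. The highest mean was that of Cacnb1 1426108_s_at, from -58.0 to -11.0. The same class held some of the lowest channel scores: Cacnb1 1440940_at lay between -98.6 and -77.3 and Cacnb2 1452476_at between -98.4 and -69.0. Kcnd3 1435720_at, from -96.8 to -65.7, was also among the 3 lowest means. Gamma subunits, several of which serve AMPA receptors in neurons, were active on some arrays for 4 of 8 genes. Cacng8, the highest of them, scored 1.49, 3.16, -13.1 and 23.7 in SSCs and 66.6, -31.4, -11.7 and -44.8 in BCSPs by 1451864_at. This was again highest on the BCSP array of experiment 1. The other Cacng8 probe set, 1459579_at, averaged -66.7 in SSCs and -65.2 in BCSPs.

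Sodium channels, which carry the upstroke of the action potential in nerve and muscle, were active on all arrays for 0 of 11 genes. Of the 8 pores, Scn1a, Scn2a and Scn3a were above 0 on some arrays, and Scn7a, Scn8a, Scn9a, Scn10a and Scn11a on none. Scn2a 1445259_at scored -6.71, 21.8, -9.73 and 50.4 in SSCs and 48.4, -18.4, 13.8 and 5.06 in BCSPs, whereas the remaining 3 probe sets of the gene were negative throughout. By 1457144_at, Scn2b, a beta subunit with an immunoglobulin fold, reached 65.5 on the BCSP array of experiment 1. It lay between -48.1 and -8.65 on the other 7. The means of the other Scn2b probe sets in either population lay between -67.3 and -49.0. Scn3b and Scn4b were below 0 throughout. Marker genes of neurons were likewise below 0, with 0 of 6 genes above 0 on any array (array medians of the list -65.2 to -34.6).

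Probe sets of the same gene differed in score, and for 11 of the 12 active genes the call rested on 1 probe set. Of the active genes, 8 had several probe sets. Trpm7 had 4, of which 2 were above 0 on all arrays and the others on 6 each. Kcnk1 and Trpc1 each had 1 probe set above 0 on all arrays and 1 above 0 on none. For Trpc1, 1421095_a_at scored -29.9, -31.5, -73.9 and -55.4 in SSCs and -33.6, -55.3, -78.6 and -43.5 in BCSPs. For Kcnk1, 1455896_a_at lay between -29.9 and -4.61. Cacna2d1 spanned the widest range of means, from 94.4 for 1440397_at to -63.4 for 1425861_x_at, with 3 further probe sets above 0 on 1 to 6 arrays. Kcna6, Kcnd1, Kcnk5 and Kcnq5 had no second probe set above 0 on more than 4 arrays. Averaging all probe sets of a gene left 9 genes above 0 on all 8 arrays. The RNA had been amplified in 2 rounds, which favours the 3′ end of transcripts, and the 3′ probe set of actin exceeded its 5′ probe set by 23.1 to 64.9 points on the 8 arrays and that of Gapdh by 21.3 to 71.9. Where each probe set lies in its transcript was not analysed here, and the part of the position in these disagreements was not tested.

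**Figure D3:**
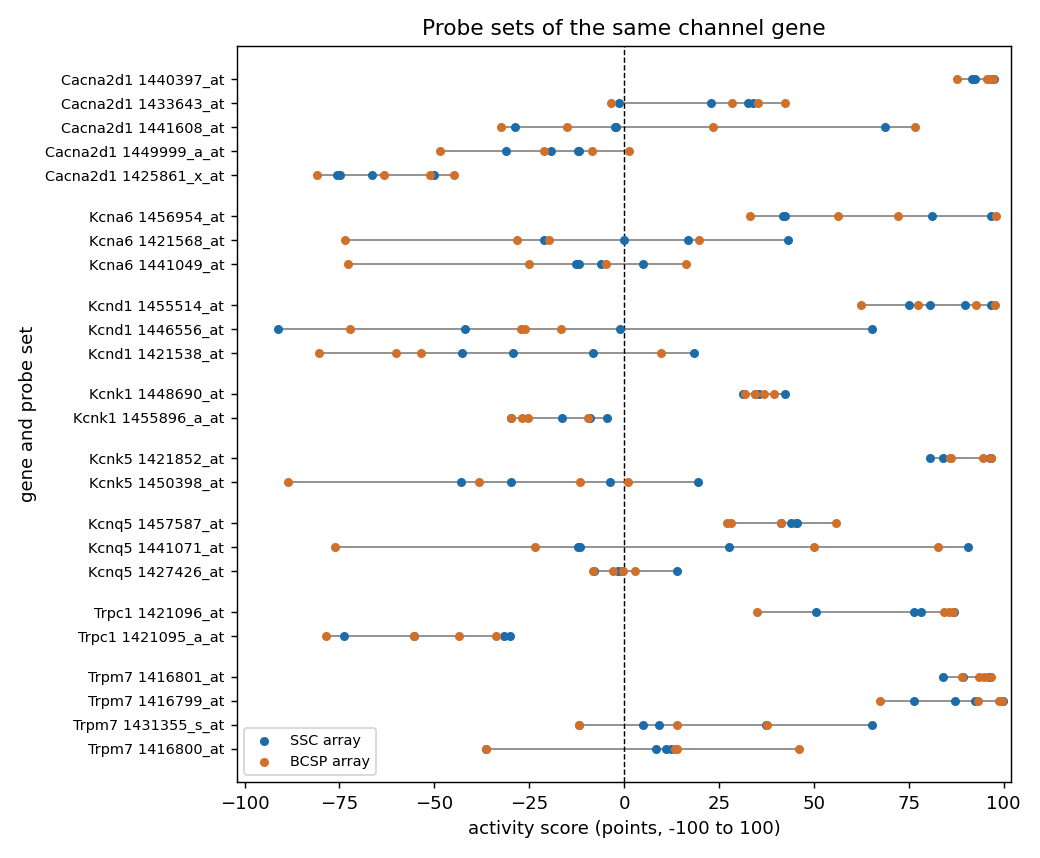
Activity score (points, horizontal axis) of every probe set of the 8 active channel genes that have more than 1 (vertical axis, gene and probe set); blue points are SSC arrays, orange points BCSP arrays, and grey lines join the lowest and highest array. In each gene at least 1 probe set lies wholly above the dashed threshold of 0, and in Cacna2d1, Kcnk1 and Trpc1 another lies wholly below it.

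Channel probe sets also varied between the experiments. The range of the 4 experiment means had a median of 32.1 points over the 253 channel probe sets and 34.7 points over all probe sets of the array. Over the 13 active ones it was 7.74 points. These were chosen as above 0 on every array and many lie near the upper limit, which by itself narrows the range. The range over all probe sets active on every array was not computed. Across the 253 probe sets, the median correlation was 0.778 for the 4 pairs of arrays from one experiment and 0.739 for the 12 pairs that share the population but not the experiment; the points share the array and its amplification. Of the 72 channel probe sets above 0 somewhere, 37 (51.4%) had their highest experiment mean in experiment 1, against 31.8% of all probe sets above 0 somewhere. The filter bears on these shares. Of the 72, 9 were above 0 on the BCSP array of experiment 1 alone, 3 on its SSC array alone and 4 on just these arrays. Such probe sets enter through the arrays that make them high, so no difference between channels and other probe sets is read from the shares. On both arrays of experiments 1 to 4, 13.0%, 10.7%, 8.30% and 7.51% of the channel probe sets were above 0, against 25.0%, 25.1%, 25.9% and 24.2% of all probe sets. Of 18 channel probe sets above 0 on a single array, 9 were so on the BCSP array of experiment 1, which also held the largest share of all such probe sets, 24.5%. These shares are descriptions with no test. Arrays also differed by experiment as a whole. The median score over all probe sets was -24.8 and -25.2 in experiment 1 and -34.2 to -28.2 in the others. The median score of the hybridization controls, which are added to the sample, was 69.6 and 70.9 in experiment 1 and 32.4 and 41.8 in experiment 3, against 1.19 to 22.6 in the others. The actin 3′ minus 5′ score was 59.6 and 64.9 in experiment 3 and 23.1 to 44.2 elsewhere. By Gapdh experiment 3 did not stand apart, with 54.7 and 49.1 points against 53.9 and 71.9 in experiment 4 and 21.3 to 44.2 in experiments 1 and 2. The part of these differences in the channel scores was not tested. Without both arrays of experiment 1, 15 probe sets were above 0 on all remaining arrays, and without those of experiment 3 there were 14.

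The probe sets with the widest spread between experiments followed different orders. Kcnq5 1441071_at had experiment means of -44.3, 38.9, 86.7 and -17.4, and Cacna2d1 1441608_at of -17.4, 10.6, 72.6 and -21.9. Both were highest in experiment 3, in SSCs and in BCSPs. Kcnd3 1426070_a_at, a second A-type pore, had means of 67.4, -13.2, 19.9 and -42.7. Kcnk16, a tandem-pore channel of the pancreas, had means of 44.0, -19.2, -62.7 and -65.6, and Trpm2 1459482_at, a channel opened by ADP-ribose and oxidative stress, of 68.3, 16.2, 10.5 and -39.5. These last 3 were highest in experiment 1, where both arrays were above 0, and all 3 were below 0 on both arrays of experiment 4.

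**Figure D4:**
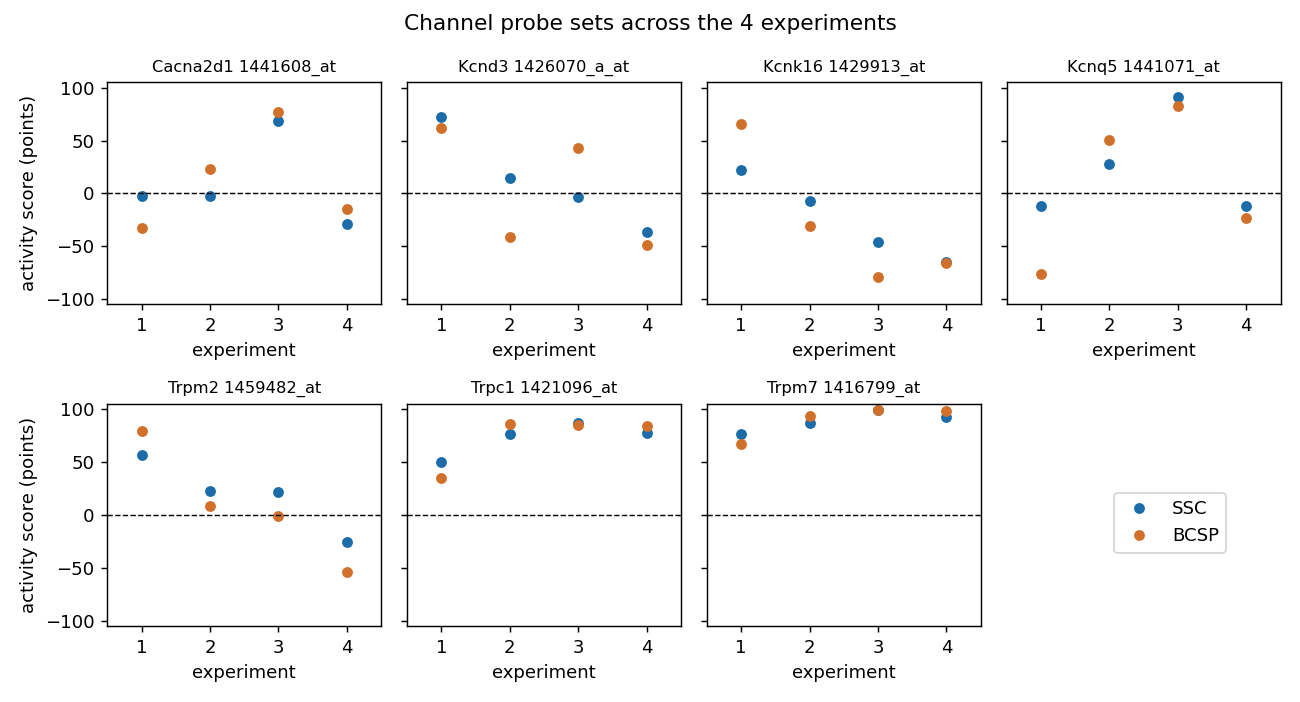
Activity score (points, vertical axis) of 7 channel probe sets on the SSC array (blue) and the BCSP array (orange) of each of the 4 experiments (horizontal axis); the dashed line is the threshold of 0. Kcnq5 1441071_at and Cacna2d1 1441608_at peak in experiment 3, Kcnd3, Kcnk16 and Trpm2 in experiment 1, and Trpc1 and Trpm7 1416799_at are lowest in experiment 1.

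No channel probe set was distinguishable between SSCs and BCSPs. With limma, 0 of 253 passed at an adjusted p under 0.05 over all probe sets, as did 0% of all 45037, and the methods' t-test gave 0 as well. At an unadjusted p under 0.05, limma gave 10 members (3.95%), against 2.4% of all probe sets. Of these 3 were higher in SSCs (1.19%, against 1.18% of all) and 7 in BCSPs (2.77%, against 1.22% of all). The methods' t-test gave 11 members at that level, and its share over all probe sets was not computed. With the experiment as a replicate block, limma gave 16 members (6.32%, against 5.04% of all) and 0 after adjustment. The median difference, SSC minus BCSP, was 0.16 points over the members and -0.605 over all probe sets, and 130 members were higher in SSCs and 123 in BCSPs.

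Among the 13 active probe sets the differences ran from -1.96 to 5.93 points. For Trpv4 the difference was 0.0875 points (95% confidence interval -3.61 to 3.79) and for Kcna5 0.158 points (-4.13 to 4.45), both close to the upper limit of the score. Kcne4 differed by -1.43 points (-7.26 to 4.41), Kcnk6 by -1.90 (-7.99 to 4.20) and Kcnk5 by -1.37 (-11.5 to 8.80). Cacna2d1 1440397_at differed by 0.59 points (-5.62 to 6.80), and the Trpm7 probe sets by -1.96 (-9.42 to 5.50) and -0.855 (-17.8 to 16.1). The intervals were wider for Kcnk1 (0.18 points, -17.6 to 17.9), Kcnd1 (2.95 points, -14.7 to 20.6), Kcnq5 (5.93 points, -13.7 to 25.6), Trpc1 (0.12 points, -27.7 to 27.9) and Kcna6 (0.603 points, -35.6 to 36.8). With the experiment as a replicate block, the interval of Trpc1 narrowed to -11.1 to 11.4, that of Kcna6 to -29.2 to 30.4 and that of Trpm7 1416799_at to -7.93 to 6.22, while that of Kcnd1 widened to -19.4 to 25.3. Each interval of the 13 probe sets included 0 in both fits.

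Of the 5 probe sets with the smallest unadjusted p in each direction, 7 of 10 were below 0 on every array. Kcnt1, a potassium channel opened by intracellular sodium, scored -83.1, -91.4, -93.6 and -89.8 in SSCs and -27.9, -70.2, -67.3 and -43.3 in BCSPs by 1458428_at. Every BCSP array lay above every SSC array, by a mean difference of -37.3 points (standard error 10.1, limma adjusted p = 1), and all 8 were below 0. The other Kcnt1 probe sets differed less, by -12.2 points (1441511_at) and -1.25 points (1439486_at), with overlapping groups. Kcnk15, a tandem-pore channel, scored -31.1, -23.6, -39.4 and -51.1 in SSCs and 51.1, 47.0, -21.8 and 1.11 in BCSPs. Its groups did not overlap either, and it was above 0 on 3 BCSP arrays and no SSC array (difference -55.7 points, standard error 18.9, limma adjusted p = 1). Kcnk7, whose product is not known to carry current by itself, scored 26.7, 63.7, -7.64 and -25.6 in SSCs and 91.8, 74.6, 28.5 and 74.9 in BCSPs, with a difference of -53.2 points and overlapping groups (limma adjusted p = 1). Cacna2d2 1451955_a_at and Cacnb4 1452089_at, lower in SSCs by mean differences of -37.3 and -23.8 points, were below 0 on every array. Cacnb4 1436912_at went the other way, by 26.3 points, and Cacnb4 1428928_at the same way, by -19.0. Of the other Cacna2d2 probe sets, 1426185_at differed by -11.6 points and 1450754_at by 4.05.

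In the other direction, Kcnn1 1419617_at averaged 45.9 ± 15.9 (SD, n = 4) on the SSC arrays and 8.17 ± 28.6 (SD, n = 4) on the BCSP arrays. It was above 0 on 4 SSC and 2 BCSP arrays and higher in SSCs in 4 of 4 experiments (limma adjusted p = 1). The other Kcnn1 probe set, 1449536_at, averaged 1.22 in SSCs and 5.68 in BCSPs, a difference of -4.46 points. Kcnu1, a potassium channel of sperm, scored -52.1, -53.0, -49.7 and -52.4 in SSCs and -62.2, -90.5, -60.8 and -89.4 in BCSPs. Its groups did not overlap, as was also the case for Cacnb2 1452476_at (difference 14.2 points). Kcnj15 1443054_at and Scn3a 1439204_at were higher in SSCs on average by 24.8 and 17.4 points with overlapping groups, and both were below 0 on every array. Scn3a 1421705_at went the other way, by -16.1 points. The other Kcnj15 probe sets differed by -9.72 points (1435354_at) and 2.62 points (1450185_a_at). In all, 5 members (1.98%) had groups that did not overlap, against 1.43% of all probe sets. Higher in SSCs were 2 of them (against 0.653% of all) and higher in BCSPs 3 (against 0.773% of all). The remaining one was Kcnv1 1439333_at, a modifier subunit, at -60.3 to -44.6 in SSCs and -42.6 to -12.9 in BCSPs. The other Kcnv1 probe sets went the other way, by 5.84 points (1429741_at) and 4.02 points (1453273_at). Differences had the same sign in 4 of 4 experiments in 40 members (15.8%), against 12.7% of all. These were 16 higher in SSCs (6.32%, against 5.43% of all) and 24 higher in BCSPs (9.49%, against 7.24% of all). The number of arrays limits the precision, with a median standard error of 14.0 points over the members.

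**Figure D5:**
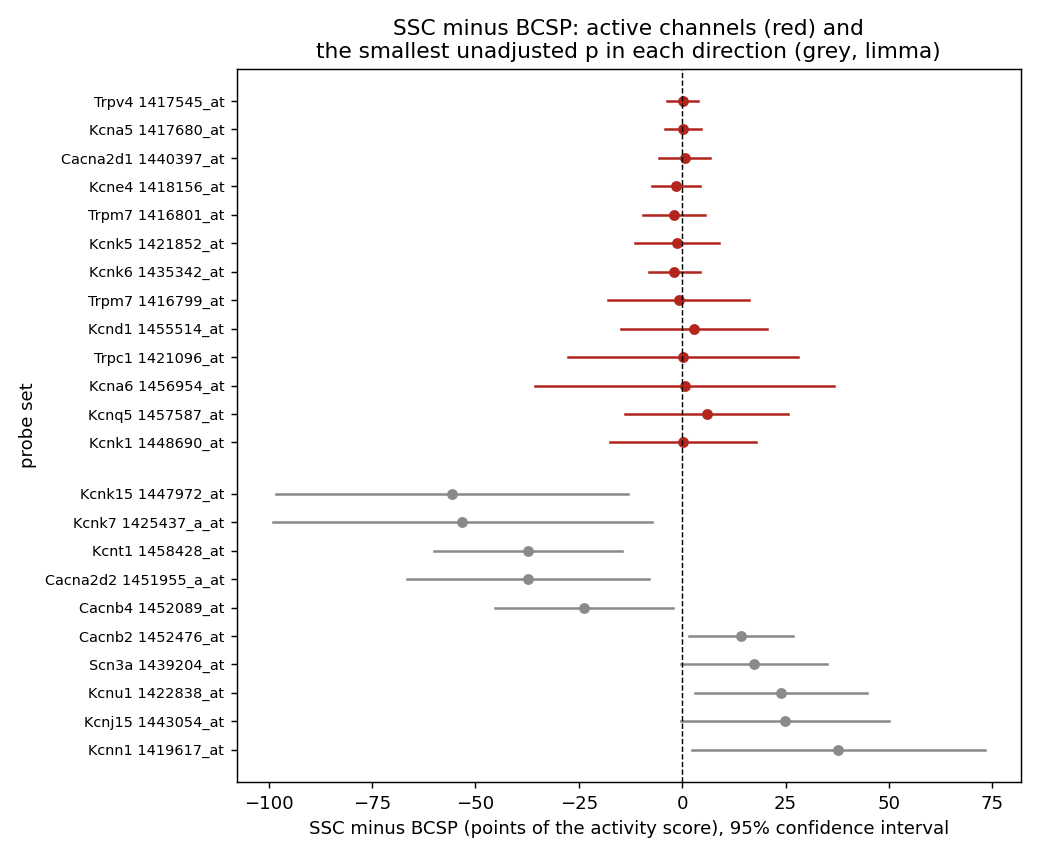
Difference in activity score, SSC minus BCSP (points, horizontal axis), with its 95% confidence interval from limma, for the 13 active probe sets (red) and the 5 probe sets in each direction with the smallest unadjusted p (grey). The active probe sets lie between -1.96 and 5.93 points with intervals that include 0; none of the grey ones passed the adjusted test.

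Other genes of ion transport, listed to place the channels in their pathway, were active in larger shares than the channel genes for some groups. Of 17 further potassium channel genes and partners, 13 were above 0 on no array, and Kcnma1 and Lrrc8a, a subunit of volume-regulated anion channels, on all 8. Kcnma1 encodes the large-conductance channel opened by voltage and calcium together. All of its 5 probe sets were above 0 on all 8 arrays, the highest at 98.8 to 100, whereas the beta subunits that tune it, Kcnmb1, Kcnmb2 and Kcnmb4, were below 0 on every array. Kcnab1, Kcnab2 and Kcnab3, which bind voltage-gated pores such as Kcna5, were also below 0 throughout. Of 22 other cation channels 4 were active on all arrays: the mechanically gated Piezo1 (81.2 to 96.2), Pkd1 of the polycystin complex (57.3 to 95.5), Tmem63a (22.1 to 82.0) and the ATP-gated P2rx4 (15.3 to 44.5).

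Of 18 genes of store-operated and intracellular calcium release, 5 were active on all arrays. Itpr2, a calcium release channel of the endoplasmic reticulum, scored 91.0 to 95.9 by its highest probe set, and the plasma membrane pore Orai1 scored 61.7 to 84.3 by 1 of 2 probe sets. Stim2, a sensor of stored calcium, was at 23.3 to 75.6 by 1 of 2, while Stim1 was above 0 on 5 arrays. Among 14 pumps and exchangers the count was 5, with the sodium-calcium exchanger Slc8a3 at 71.0 to 97.1 by its higher probe set and the calcium pump Atp2b1 at 51.7 to 87.3. Effectors of calcium signals were active in 7 of 13 genes. Rcan1, a target and inhibitor of calcineurin, scored 97.0 to 99.7 by 1 probe set and below 0 on every array by the other. Nfatc1, a transcription factor that calcineurin activates, scored 73.5 to 91.9, with 3 of 5 probe sets above 0 on all arrays. For comparison, 25.3% of all genes had a probe set above 0 on all 8 arrays and 9.76% of the channel genes did. A gene with more probe sets has more chances to count. By probe set the shares were 15.4% for the potassium partners, 11.8% for other cation channels and 19.5% for store-operated and intracellular channels. They were 18.9% for pumps and exchangers and 23.4% for effectors, against 18.8% of all probe sets with 1 symbol and 5.14% of the channel probe sets.

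Both populations are labelled as skeletal cells, and 7 of 7 chondrocyte genes, 4 of 4 osteoblast genes and 5 of 5 fibroblast genes were active on all 8 arrays. Of cell types that express many channels, endothelial (6 genes), skeletal muscle (6), neutrophil (4) and neuron (6) markers were above 0 on no array. Macrophage, lymphocyte and erythroid markers were active on all arrays for 0 genes, and 1 gene of each list was above 0 on some. Of 7 smooth muscle and pericyte genes only Cspg4 was active, and Kcnj8 and Abcc9, which form the ATP-sensitive channel of pericytes, were below 0 on every array. Of 3 Schwann cell genes only S100b, which chondrocytes also express, was active. In bulk samples of sorted cells, fewer cells of a type and less RNA per cell cannot be told apart.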

How the data were processed

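Gene expression was measured on Affymetrix mouse arrays, 4 of SSCs and 4 of BCSPs. The authors amplified the RNA in 2 rounds and submitted the arrays to Gene Expression Commons, where public arrays serve as the common reference and StepMiner sets a threshold per probe set. Deposited were the resulting activity scores, from -100.03 to 100. The summarisation of probes is not given in the sources. Genes were named through the platform annotation: 34945 probe sets had 1 symbol, 932 had several and 9160 were not listed. All 253 members matched RefSeq, with 0 symbols changed. The 64 control probe sets were left out.

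The populations were compared over all other probe sets by lmFit and eBayes (with trend and without a block) of limma 3.58.1, run in R 4.3.3, with Benjamini-Hochberg adjustment at 0.05. This main fit was tested on simulated scores, drawn independently for each array and so without an experiment effect. The other fits were not tested in this way. The labels place 1 array of each population in each experiment. The study names 4 mice, so the SSC and BCSP arrays of an experiment may come from the same mouse, which the labels do not state. The BCSP array of experiment 2 carries conflicting numbers in its labels and was placed by its experiment. Within experiments 1 to 4, the deviations of the SSC and BCSP arrays from their group means correlated at 0.394, 0.165, 0.605 and 0.173 over all probe sets. Over the members the correlations were 0.213, -0.0021, 0.347 and 0.160. On the values over all probe sets, the experiments were taken to pair the arrays. Among the fits, this pairing entered only that with the replicate block. The members and gene lists were chosen with earlier results of these data known. Genes were named by a rule: those active on all arrays, the highest of each class without one, the 5 smallest p-values in each direction, disagreeing probe sets, the 5 widest experiment ranges and the 3 lowest means. Other genes were named as examples after their values were seen.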

Additional observations from a re-analysis of the deposited data

Results flagged for a closer look

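In groups of 4 arrays, a single array stood apart from the other 3 in 5 of 80 groups tested, where chance gives about 1 in 20. All 5 concern probe sets that were active on all 8 arrays, whose scores mostly lie near the upper limit of the scale, where only a low value can stand apart. The BCSP array of experiment 1 scored 35.0 for Trpc1 1421096_at, against 84.4 to 86.6 on the other BCSP arrays. The same array scored 87.8 for Cacna2d1 1440397_at, against 95.6 to 97.1. The SSC array of experiment 1 scored 85.6 for Kcnk6, against 89.7 to 90.0. The SSC array of experiment 3 scored 93.2 for Kcna5, against 96.7 to 97.1, and 98.2 for Trpv4, against 99.9 to 100.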

How the results depend on the processing

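The count of 13 probe sets above 0 on all arrays ranged from 9 (mean of all probe sets of a gene) to 15 (without both arrays of experiment 1) over the alternatives run, and from 13 to 14 when a single array was left out. It was 13 with a threshold of 20, with the 95th percentile of genes of unrelated tissues as threshold (-19.3 to 25.8 on the 8 arrays), with quantile normalization and with centring. No member passed the adjusted test between SSCs and BCSPs in any of 24 fits, with a smallest adjusted p of 0.933 (limma with the replicate block). The 5 members with groups that do not overlap became 8 with quantile normalization and 7 with centring. The share over all probe sets was not computed for these settings. The same sign in 4 of 4 experiments, a looser criterion also counted as an alternative, held for 40 members (15.8%, against 12.7% of all). The 10 members at an unadjusted limma p under 0.05 became 16 with the replicate block and 6 without both arrays of experiment 4. These arrays, and those of the other experiments, were left out in pairs after the data were seen. The count was 2 among probe sets above 0 on at least 1 or on at least 4 arrays. It was 6 with the highest probe set per gene and 5 with the mean of its probe sets. Such filtered and per-gene fits hold fewer members, with 72 above 0 on at least 1 array and 123 genes, against 253 probe sets. Among these alternatives, the share over all probe sets was computed for the replicate block alone (5.04%, against 6.32% of the members). No change in share is therefore read from the other counts. Of 327 alternatives, 319 left a result the same and 0 reversed one. Same meant a count within 1.5 times, or a mean or median score within the pooled SD of the groups. For the 5 probe sets in each direction with the smallest p, it meant an unchanged sign and an adjusted p not under 0.05. These made up 209 of the 327. They were picked from these data, and no member had an adjusted p under 0.933 in any fit, so this outcome was nearly fixed. The total is thus no measure of robustness. Scores near the limits of the scale cannot show a difference, and 4 arrays a group leave wide intervals for probe sets that vary.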
